A study of Homo sapiens with 6 samples.

Results

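Genes of melanosome biogenesis and transport were followed in SU-CCS-1 cells after knockdown of EWSR1::ATF1 (EA1), the fusion that joins the amino-terminal part of EWSR1 to the DNA-binding part of the transcription factor ATF1 and defines clear cell sarcoma, a soft tissue tumor with melanocytic features. The genes were MLPH, RAB27A, MYO5A, RAB38, RAB32, GPNMB, HPS4, BLOC1S1, DTNBP1 and LYST, found by their symbols, and they make up 10 of the 18118 genes counted. All 10 passed the filter on low counts that left 14571 genes for testing. SU-CCS-1 is an established human line of this tumor, and every library carried it with no other line for comparison. The transfections used 5 pmol of siRNA and lasted 48 h. Of the 6 RNA-seq libraries, 2 carried a negative control siRNA, 2 carried EA1 siRNA 1 and 2 carried EA1 siRNA 2. The protocol describes a lone siRNA against EA1, whereas the sample labels separate siEA1-1 from siEA1-2. Nothing says whether replicates were separate cultures, so p values measure only the spread between these libraries.

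Melanosomes are lysosome-related organelles in which melanin is made and stored. Their proteins are sorted out of endosomes by the complexes AP-3, BLOC-1, BLOC-2 and BLOC-3 together with the small GTPases RAB32 and RAB38. Mature melanosomes are then handed to the actin cortex by a tripartite complex in which RAB27A sits on the organelle, MLPH (melanophilin) binds RAB27A, and the motor MYO5A (myosin Va) binds MLPH. Loss of members of this machinery causes inherited disorders of pigmentation, among them Griscelli, Hermansky-Pudlak and Chediak-Higashi syndromes.

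After EA1 knockdown, 8 of the genes were higher and 2 were not called. The RAB27A, MLPH and MYO5A genes and RAB38 rose by 3.06 to 4.99-fold against the mean of both EA1 siRNAs, GPNMB rose by 2.73-fold, and HPS4, RAB32 and LYST rose by 1.78 to 1.82-fold. BLOC1S1 and DTNBP1, both subunits of BLOC-1, did not pass the test. A gene was called where its p from the quasi-likelihood test of edgeR, adjusted over all genes tested by the Benjamini-Hochberg method, was under 0.05. By that rule 8 of 10 were called higher after EA1 siRNA 1 (19.9% of all genes tested), 8 of 10 after EA1 siRNA 2 (18.5% of all genes) and 8 of 10 against the mean of both (21.5% of all genes), and none was called higher in control in any of these comparisons (22.1% of all genes were, against the mean of both). Without adjustment, too, only these 8 passed a p of 0.05 against the mean of both, and DESeq2 over the 6 libraries called 8, as did edgeR without replicate 1 of EA1 siRNA 2, the library that stood highest in most of these genes. The median log2 fold change (log2FC, control minus knockdown, so that a negative value is higher after knockdown) of the 10 genes was -1.13, -1.28 and -1.16 in these comparisons, beside -0.02, -0.00014 and -0.01 over all genes tested. The comparisons share their 2 control libraries, and the 10 genes were chosen with earlier results of these data known.

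**Figure D1:**
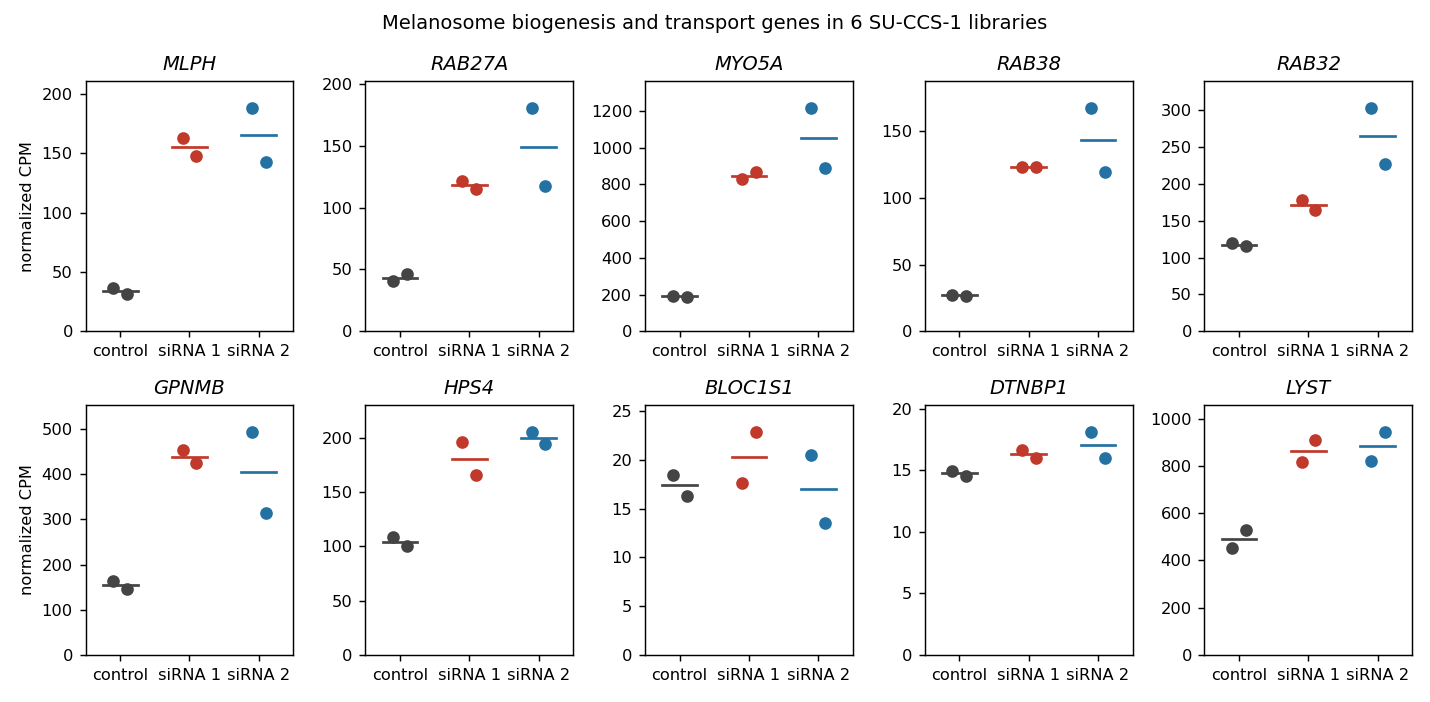
Normalized CPM of the 10 genes in each library, on linear axes that start at 0 and differ between panels; dots are libraries and lines the mean of 2. In 9 genes both control libraries lie below all 4 knockdown libraries, and in BLOC1S1 the groups overlap.

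Library totals ran from 5942808 to 7599305 counts, so that 3 counts, the limit that a count of 0 allows, came to 0.386 to 0.534 CPM. The knockdown was seen on ATF1, whose reads come from both the fusion and the wild-type gene: it averaged 84.8 ± 3.72 CPM in control (SD, n = 2), 20.7 ± 0.661 after EA1 siRNA 1 and 22.0 ± 0.427 after EA1 siRNA 2. EWSR1 averaged 216 ± 25.2, 199 ± 5.53 and 209 ± 16.1 CPM and was not called. The fusion transcript was not counted apart, so loss of the fusion and loss of wild-type ATF1 cannot be told apart here. All 8 melanocytic markers examined were present, and their summed level was 2750 to 3010 CPM in control, 8009 to 8109 after EA1 siRNA 1 and 7393 to 11990 after EA1 siRNA 2. MLANA was near 0, at 4 and 0 counts in the control libraries. Of 8 markers of other cell types 2 could be examined, and KRT14 and COL1A1 together came to 1.65 to 2.70 CPM in control and 2.56 to 4.81 after knockdown. Fewer cells of a kind and less RNA per cell cannot be told apart in these bulk samples, and the part of marker levels in the results below was not tested.

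Short stretches of promoter sequence are shown for 4 genes that rose and for BLOC1S1, which was not called, because ATF1 recognizes the cAMP response element TGACGTCA and MITF recognizes E-boxes such as CACGTG and CATGTG. The 250 bases before each RefSeq start (GRCh38.p14, the build of hg38) were searched on both strands, in 21 windows of 9 of the 10 genes. RAB38 had no entry. Each line gives 30 bases, 5′ to 3′ on the strand of the gene, with the match in capitals, where a match on the other strand reads as its reverse complement.
HPS4, TGACGTCA, chr22:26483865-26483894, minus strand: ccattggtctcTGACGTCAgcggcgtgcgg
MLPH, CACGTG, chr2:237487204-237487233, plus strand: cggggcgcagccCACGTGgttcgggcggga
GPNMB, CATGTG, chr7:23246701-23246730, plus strand: gcttaataccatCACATGatcctccccgag
GPNMB, TGAGTCA, chr7:23246630-23246659, plus strand: ccaagaaggagTGAGTCAtaagcacatgag
LYST, CATGTG, chr1:235883731-235883760, minus strand: tgccaaattcccCATGTGatacaagcgtgg
LYST, TGAGTCA, chr1:235883820-235883849, minus strand: tcagggaattaTGACTCAtaggagccacca
BLOC1S1, CACGTG, chr12:55716016-55716045, plus strand: ggttcccaacctCACGTGacacagcggtca

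TGACGTCA was held by 1.65% of all 35116 promoter windows and by 2 overlapping windows of HPS4, 20 and 100 bases before the starts, which are one site. CACGTG was in 6.34% of all windows and in windows of MLPH, 35 bases before the start, and of BLOC1S1, 18 bases before it. CATGTG was in 9.42% of all windows and in windows of GPNMB (123 and 62 bases before the start), LYST and HPS4. TGAGTCA, the site of AP1 factors, was in 4.2% of all windows and in windows of GPNMB and LYST. The wider TGANNTCA, which includes TGACGTCA, was in 10.1% of windows and in those of HPS4 and MLPH. No window of RAB27A, MYO5A, RAB32 or DTNBP1 held any of these letters. Repeats of TGA, which the authors also found to recur in EA1 binding sites, were not searched for in any window. By GENCODE release 44, many of these windows also cover exonic bases, counted over the exons of any gene on either strand. For the HPS4 windows that hold TGACGTCA, 236 and 250 of the 250 bases before the starts were exonic. The number was 137 for the MLPH window and 127 for the BLOC1S1 window that hold CACGTG, 78 for GPNMB and 11 for LYST. The span given for HPS4 runs to base 26483931, so its TGACGTCA lies inside that span. SRRD, on the opposite strand, overlaps HPS4 by 55 bases, and the exonic bases of each gene were not counted apart. The matches are descriptions of sequence and were not tested against the counts.

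MYO5A (ENSG00000197535, chr15:52307281-52529132 on hg38, minus strand), the actin motor of the transport complex, had the largest averaged fold of the 10, with RAB38 and MLPH within its error. It stood at 190 and 189 CPM in the control libraries, 832 and 866 after EA1 siRNA 1, and 1218 and 892 after EA1 siRNA 2. Every knockdown library lay far above the controls, which were almost equal. MYO5A was 4.48-fold higher after EA1 siRNA 1 (log2FC -2.16, SE 0.144, adjusted p = 8.97e-07 by edgeR) and 5.57-fold higher after EA1 siRNA 2 (log2FC -2.48, SE 0.145, adjusted p = 5.47e-07 by edgeR). Among the 14571 genes tested it was the 275th most raised against the mean of both.

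MLPH (ENSG00000115648, chr2:237485428-237555322, plus strand), the linker, stood at 36.2 and 31.4 CPM in control, 163 and 147 after EA1 siRNA 1, and 188 and 142 after EA1 siRNA 2. The control libraries were far below all others, and the values of the 2 siRNAs overlapped. Its rise was 4.60-fold after EA1 siRNA 1 (log2FC -2.20, SE 0.149, adjusted p = 1.00e-06 by edgeR) and 4.89-fold after EA1 siRNA 2 (log2FC -2.29, SE 0.149, adjusted p = 1.00e-06).

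RAB27A (ENSG00000069974, chr15:55202966-55319113, minus strand), the GTPase that recruits MLPH, stood at 40.4 and 46.2 CPM in control, 122 and 115 after EA1 siRNA 1, and 181 and 117 after EA1 siRNA 2. Groups did not overlap between control and knockdown, and replicate 1 of EA1 siRNA 2 was above the other 3 knockdown libraries. RAB27A was 2.73-fold higher after EA1 siRNA 1 (log2FC -1.45, SE 0.178, adjusted p = 6.38e-05 by edgeR) and 3.42-fold higher after EA1 siRNA 2 (log2FC -1.78, SE 0.178, adjusted p = 1.90e-05). The fitted rise of RAB27A was smaller than that of its partners, and that difference was not tested. Per transcript length (MANE Select transcripts), the ratio of RAB27A to MLPH was 1.21 and 1.6 in control, 0.812 and 0.847 after EA1 siRNA 1, and 1.04 and 0.893 after EA1 siRNA 2. The ratio of MYO5A to MLPH was 1.62 and 1.86 in control, 1.57 and 1.81 after EA1 siRNA 1, and 2.00 and 1.93 after EA1 siRNA 2, so control values fell inside the range of the knockdown values, whereas the RAB27A to MLPH ratio was lower in every knockdown library than in either control. These ratios are descriptions and were not tested, and the absolute level of a ratio depends on the transcript chosen.

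**Figure D2:**
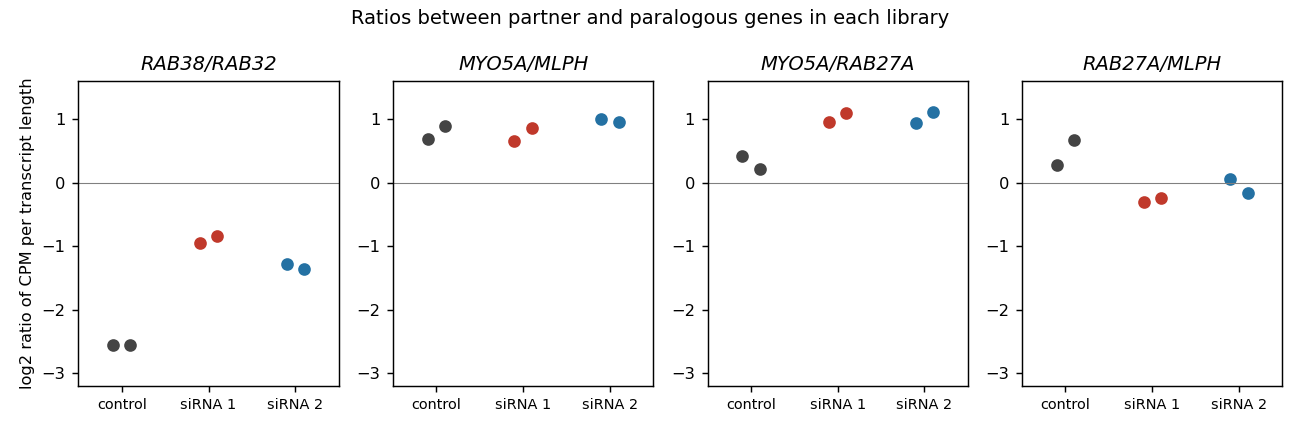
Log2 ratio of the normalized CPM per transcript length of the first gene over that of the second, per library; dots are libraries, in control, EA1 siRNA 1 and EA1 siRNA 2. RAB38 over RAB32 is 0.17 in both controls and 0.391 to 0.56 after knockdown, RAB27A over MLPH is lower in every knockdown library, and MYO5A over MLPH overlaps between control and knockdown.

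RAB38 and RAB32 are close paralogs that deliver cargo such as tyrosinase to melanosomes, and the 95% intervals of their log2FC against the mean of both siRNAs, -2.62 to -1.99 for RAB38 and -1.11 to -0.59 for RAB32, did not overlap. RAB38 (ENSG00000123892, chr11:88113251-88175443, minus strand) stood at 27.4 and 26.5 CPM in control, 123 and 124 after EA1 siRNA 1, and 168 and 119 after EA1 siRNA 2. It was 4.58-fold higher after EA1 siRNA 1 (log2FC -2.20, SE 0.157, adjusted p = 1.45e-06 by edgeR) and 5.31-fold higher after EA1 siRNA 2 (log2FC -2.41, SE 0.157, adjusted p = 1.00e-06). The 2 control values and the 2 values of EA1 siRNA 1 were nearly equal within their groups.

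RAB32 (ENSG00000118508, chr6:146543833-146554953, plus strand) stood at 120 and 116 CPM in control, 178 and 164 after EA1 siRNA 1, and 303 and 227 after EA1 siRNA 2. All knockdown libraries were above the controls, and both libraries of EA1 siRNA 2 were above both of EA1 siRNA 1. Its rise was 1.45-fold after EA1 siRNA 1 (log2FC -0.54, SE 0.133, adjusted p = 0.00703 by edgeR) and 2.25-fold after EA1 siRNA 2 (log2FC -1.17, SE 0.133, adjusted p = 4.60e-05). Without control replicate 2 or without replicate 1 of EA1 siRNA 1 the first of these was no longer called, at an adjusted p of 0.0619 and 0.0603 by edgeR. Per transcript length, RAB38 was at 0.17 of RAB32 in both control libraries, at 0.516 and 0.56 after EA1 siRNA 1, and at 0.411 and 0.391 after EA1 siRNA 2. RAB38 remained the lower of the pair in every library while the gap narrowed in all 4 knockdown libraries.

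**Figure D3:**
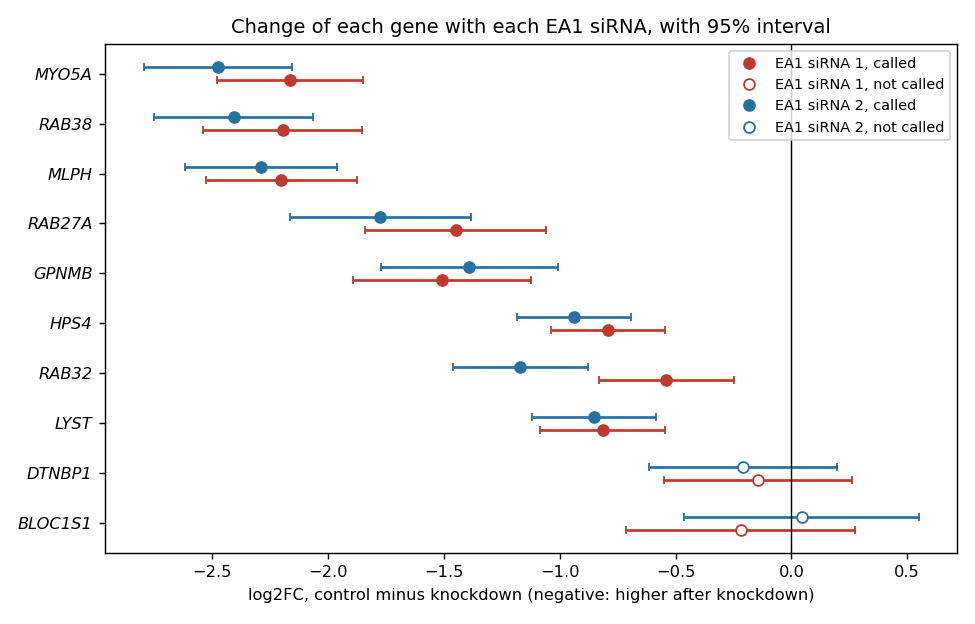
Log2 fold change of each gene, control minus knockdown, for EA1 siRNA 1 and EA1 siRNA 2; bars are 95% intervals from the fit and open circles are genes not called. MYO5A, RAB38 and MLPH lie beyond -2 with both siRNAs, RAB32 differs between the siRNAs, and BLOC1S1 and DTNBP1 have intervals that include 0.

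GPNMB (ENSG00000136235, chr7:23235967-23275108, plus strand), a transmembrane glycoprotein of melanosomes related to PMEL, stood at 163 and 145 CPM in control, 454 and 424 after EA1 siRNA 1, and 495 and 315 after EA1 siRNA 2. It rose by 2.85-fold after EA1 siRNA 1 (log2FC -1.51, SE 0.175, adjusted p = 4.21e-05 by edgeR) and by 2.62-fold after EA1 siRNA 2 (log2FC -1.39, SE 0.175, adjusted p = 9.70e-05). It was the only called gene of the 10 whose fold was smaller after EA1 siRNA 2 than after EA1 siRNA 1, and that difference was within its error (log2FC of EA1 siRNA 2 minus EA1 siRNA 1 -0.12, 95% interval -0.49 to 0.25).

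HPS4 (ENSG00000100099, chr22:26443107-26483931, minus strand) forms BLOC-3 with HPS1, and BLOC-3 is the exchange factor that activates RAB32 and RAB38. It stood at 109 and 99.9 CPM in control, 196 and 166 after EA1 siRNA 1, and 206 and 195 after EA1 siRNA 2. Control and knockdown groups did not overlap. The rise was 1.73-fold after EA1 siRNA 1 (log2FC -0.79, SE 0.112, adjusted p = 0.000182 by edgeR) and 1.92-fold after EA1 siRNA 2 (log2FC -0.94, SE 0.113, adjusted p = 6.66e-05).

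LYST (ENSG00000143669, chr1:235661041-235883724, minus strand), the very large BEACH-domain protein that controls the size of lysosomes and melanosomes, was the most abundant of the 10 in CPM in control. It stood at 452 and 528 CPM in control, 815 and 909 after EA1 siRNA 1, and 823 and 946 after EA1 siRNA 2. The siRNAs gave values that overlapped each other and lay above both controls. It was 1.76-fold higher after EA1 siRNA 1 (log2FC -0.82, SE 0.122, adjusted p = 0.000276 by edgeR) and 1.81-fold higher after EA1 siRNA 2 (log2FC -0.85, SE 0.123, adjusted p = 0.000251).

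The 2 BLOC-1 subunits gave no call. BLOC1S1 (ENSG00000135441, chr12:55716038-55720087, plus strand) stood at 18.4 and 16.3 CPM in control, 17.6 and 22.9 after EA1 siRNA 1, and 20.5 and 13.5 after EA1 siRNA 2, with the groups overlapping. Against the mean of both siRNAs its log2FC was -0.09 with a 95% interval of -0.52 to 0.35 (adjusted p = 0.751 by edgeR). DTNBP1 (dysbindin, ENSG00000047579, chr6:15522807-15663058, minus strand) stood at 14.97 and 14.5 CPM in control, 16.6 and 16.0 after EA1 siRNA 1, and 18.2 and 16.0 after EA1 siRNA 2. Its knockdown values were all above the controls, but its log2FC of -0.18 had a 95% interval of -0.53 to 0.18 (adjusted p = 0.403 by edgeR). With these intervals a rise of the size of that of LYST (log2FC -0.83) lay outside both. Counting all 10, the control libraries lay below all 4 knockdown libraries in 9, beside 28.1% of all genes tested.

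A length-corrected order of levels (CPM per kilobase of the MANE Select transcript) put RAB32 first in control, at 110 ± 2.57, followed by GPNMB at 58.2 ± 4.88, LYST at 36.4 ± 3.98 and BLOC1S1 at 30.9 ± 2.62 (SD, n = 2 throughout). HPS4 at 20.6 ± 1.26, RAB38 at 18.8 ± 0.447, MYO5A at 15.6 ± 0.0386, RAB27A at 12.6 ± 1.18, DTNBP1 at 10.7 ± 0.224 and MLPH at 9.03 ± 0.916 followed. LYST and BLOC1S1 differed by less than the sum of their SDs. After EA1 siRNA 1 the order was GPNMB at 166 ± 8.01, RAB32 at 161 ± 9.22, RAB38 at 86.2 ± 0.0342, MYO5A at 69.99 ± 2.03 and LYST at 64.0 ± 4.93. After EA1 siRNA 2 it was RAB32 at 249 ± 50.6, GPNMB at 153 ± 47.9, RAB38 at 100.1 ± 23.9, MYO5A at 87.0 ± 19.0 and LYST at 65.7 ± 6.45. RAB38 was below LYST in control and above it with either siRNA, by more than the sum of their SDs. GPNMB and RAB32, and MYO5A and LYST, differed by less than that sum with either siRNA, and so did GPNMB and RAB38, and RAB38 and MYO5A, after EA1 siRNA 2. The order depends on the length used: per kilobase of all exons of the gene, MYO5A stayed below LYST in every group. By that length RAB38 was already above LYST in control, at 18.8 against 17.5, so their change of order was not seen.

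The EA1 siRNAs were then compared with each other. Only RAB32 was called of the 10 (2.24% of all genes in either direction), with a level 1.55-fold higher after EA1 siRNA 2 (log2FC 0.63, SE 0.131, 95% interval 0.34 to 0.92, adjusted p = 0.0334 by edgeR). Without adjustment MYO5A had a p under 0.05 as well, at 0.0418, and an adjusted p of 0.272 by edgeR. The other 8 genes did not pass the test, with log2FC from -0.26 for BLOC1S1 to 0.33 for RAB27A. In 9 of 10 genes replicate 1 of EA1 siRNA 2 was higher than replicate 2, with LYST as the exception. Replicate 1 was also the higher in 8 of 10 genes in control and in 6 of 10 after EA1 siRNA 1. The share over all genes was not counted. In 9 of 10 genes the replicates of EA1 siRNA 2 were farther apart than those of EA1 siRNA 1. Replicate 1 of EA1 siRNA 2 had the lowest total and the highest summed level of melanocytic markers. Without replicate 1 of EA1 siRNA 2, RAB32 differed by a log2FC of 0.41 (adjusted p = 0.0531 by edgeR) and GPNMB by -0.48 (adjusted p = 0.0314). Without replicate 2 of EA1 siRNA 2, the log2FC was 0.82 for RAB32, 0.60 for RAB27A, 0.51 for MYO5A and 0.43 for RAB38.

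Around the 10 genes, 90 further genes of the melanosome machinery were tested of 100 listed. These lists were chosen with earlier results of these data known. Of these, 35 (38.9%) were higher after knockdown against the mean of both siRNAs and 8 (8.89%) were higher in control, beside 21.5% and 22.1% of all genes, and the median log2FC was -0.21. Taken by siRNA, 22 of the 35 were called with each siRNA, 5 with EA1 siRNA 1 alone, 7 with EA1 siRNA 2 alone and 1 with neither. DESeq2 called 27 of them, and 31 were called when both siRNAs were merged into 1 group. Of the 8 higher in control, 3 (VPS8, RABGGTB and KLC2) were called with each siRNA, 2 with EA1 siRNA 1 alone and 3 with EA1 siRNA 2 alone. DESeq2 called all 8, and 4 were called with the siRNAs merged.

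**Figure D4:**
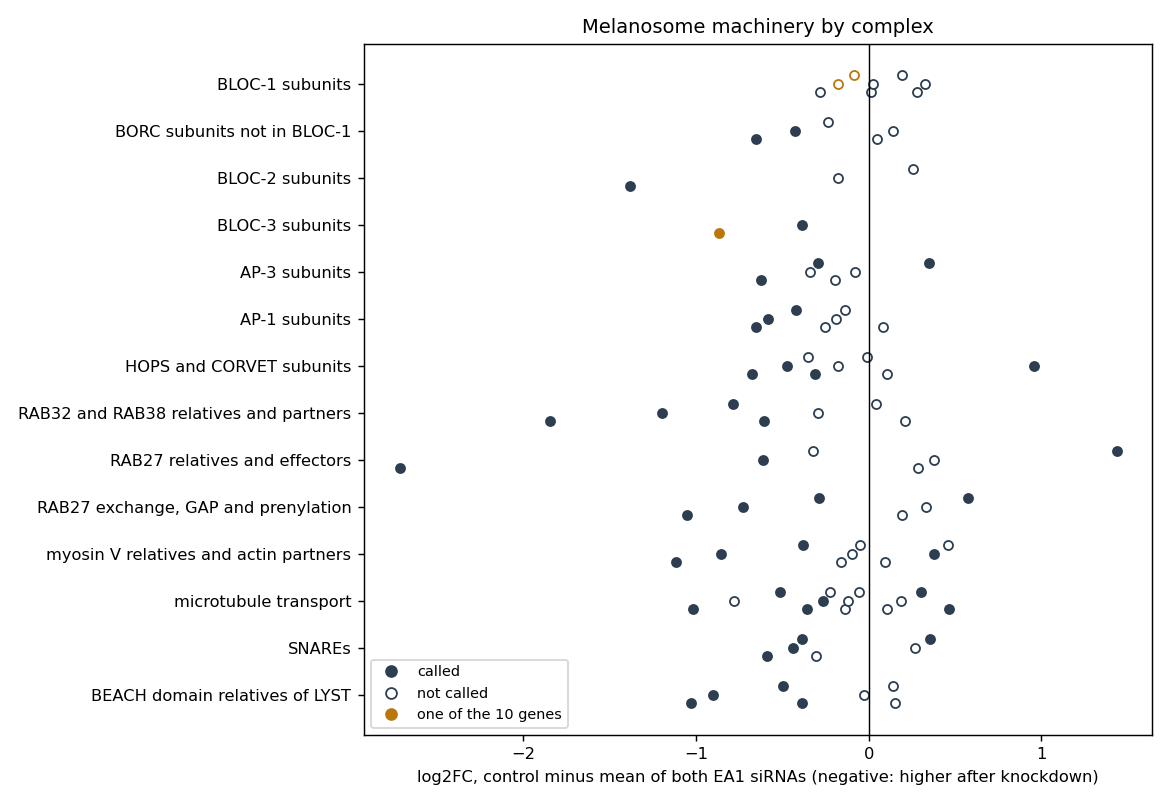
Log2 fold change, control minus the mean of both EA1 siRNAs, of each gene tested in 14 groups of the melanosome machinery; filled points are called, open points not called, and orange points are BLOC1S1, DTNBP1 and HPS4. All 8 BLOC-1 subunits are open points, while SYTL2 (-2.72) and SYTL4 (1.44) lie at the ends.

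In the sorting complexes the counts of subunits were small, and shares such as 1 of 3, 2 of 6 or 3 of 8 lie near the 21.5% of all genes that were higher after knockdown. In BLOC-1, none of 8 subunits was called by edgeR, 1 (BLOC1S2) passed an unadjusted p of 0.05, and DESeq2 called none. BLOC1S2 was at log2FC 0.33 with an adjusted p of 0.0588, and it was called, as higher in control, with RLE size factors (adjusted p = 0.0491 by edgeR) and with the replicate block (adjusted p = 0.0383), and without replicate 1 of EA1 siRNA 2 (adjusted p = 0.0494). Of 5 other subunits of BORC, the lysosome-positioning complex that shares subunits with BLOC-1, BORCS5 (log2FC -0.65) and BORCS8 (-0.43) were higher after knockdown, a count that was 0 without control replicate 2 and 1 without any one of the other libraries, by DESeq2 or with RLE size factors. In BLOC-2, 1 of 3 subunits rose, HPS5, at 155 CPM in control and 432 and 377 with the siRNAs (log2FC -1.38), while HPS3 (-0.18) and HPS6 (0.26) were not called. Both subunits of BLOC-3 rose, HPS1 (log2FC -0.38) and HPS4 (-0.87), and HPS1 was not called without control replicate 1.

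Among the adaptors, 2 of 6 AP-3 subunits tested rose, AP3S2 (log2FC -0.63) and AP3B1 (-0.29), and AP3M1 was called as higher in control (0.35). AP3B1 was not called with EA1 siRNA 1 (adjusted p = 0.0532 by edgeR) or by DESeq2 (adjusted p = 0.106). AP3M1 was at log2FC 0.10 with EA1 siRNA 1 (adjusted p = 0.432 by edgeR) and 0.59 with EA1 siRNA 2, and was not called with the siRNAs merged (adjusted p = 0.129). Of 7 AP-1 subunits 3 rose, AP1S3 (-0.65), AP1S2 (-0.58) and AP1S1 (-0.42), a count that was 1 without control replicate 1, control replicate 2 or replicate 2 of EA1 siRNA 1, and also 1 by DESeq2. In the tethering complexes HOPS and CORVET, 3 of 8 subunits rose, VPS41 (-0.67), VPS18 (-0.48) and VPS39 (-0.31), and VPS8, a CORVET subunit, fell from 198 CPM to 99.1 and 106 (log2FC 0.95). VPS18 was not called with EA1 siRNA 1 (adjusted p = 0.0792 by edgeR), nor VPS39 with EA1 siRNA 2 (adjusted p = 0.0781). Without control replicate 2 or replicate 1 of EA1 siRNA 1, 2 subunits of HOPS and CORVET were called in place of 4.

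Of 7 relatives and partners of RAB32 and RAB38, 4 rose, beside 21.5% of all genes. RAB7A, a GTPase of late endosomes, went from 233 CPM to 507 and 561 (log2FC -1.20), ANKRD27 (VARP), an effector of RAB32 and RAB38, had a log2FC of -0.78, RAB9A of -0.61, and RAB7B of -1.85 at under 5 CPM on average in every group. RAB29, the third member of the RAB32 family, was at log2FC 0.04 and was not called.

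The RAB27A cycle itself moved in both directions. TBC1D10A, a GTPase-activating protein for RAB27A, rose from 8.99 CPM to 20.5 and 16.9 (log2FC -1.05), CHM, the escort protein for prenylation, had a log2FC of -0.73 and MADD, an exchange factor, of -0.29, while RABGGTB, a subunit of the prenylating enzyme, fell (0.57). MADD was not called with EA1 siRNA 1 (adjusted p = 0.074 by edgeR) or by DESeq2 (adjusted p = 0.103). Of 6 RAB27 relatives and effectors tested of 10 listed, SYTL2 rose from 1.02 to 5.83 and 8.20 CPM (log2FC -2.72) and MREG (melanoregulin) had a log2FC of -0.61, whereas SYTL4 (granuphilin) fell from 7.35 CPM to 3.92 and 1.85 (log2FC 1.44). SYTL2 had 5 and 10 counts in the control libraries, so its fold rests on few reads. MREG was not called with EA1 siRNA 1 (adjusted p = 0.0813 by edgeR).

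The next lists are small, and shares such as 3 of 9 or 4 of 13 lie near the 21.5% of all genes higher after knockdown. On the actin side, 3 of 9 genes tested rose, SPIRE1 (log2FC -1.12) and FMN1 (-0.86), which nucleate actin filaments, and RAB11A (-0.38). RAB11A was not called with EA1 siRNA 2 (adjusted p = 0.0726 by edgeR). RAB17 was called as higher in control (0.38), though not with EA1 siRNA 2 (0.21, adjusted p = 0.270 by edgeR) or with the siRNAs merged (adjusted p = 0.0836). Of 13 microtubule transport genes 4 rose, among them DCTN1 (-1.02), DYNC1H1 (-0.51) and KIF3A (-0.36), which belong to dynactin, dynein and kinesin, and the kinesin gene KLC2 (0.46) fell. KIF3A was not called with EA1 siRNA 1 (adjusted p = 0.0848 by edgeR) or by DESeq2 (adjusted p = 0.103). KIF5B, another kinesin gene, was called on the mean (0.30), but its log2FC was 0.50 for EA1 siRNA 1 and 0.11 for EA1 siRNA 2 (adjusted p = 0.429 by edgeR), and it was not called with the siRNAs merged (adjusted p = 0.127). Of 6 SNAREs, STX12 (-0.59), SNAP23 (-0.44) and VAMP3 (-0.39) rose, and STX3 (0.35) was called as higher in control. STX3 was at 0.10 for EA1 siRNA 1 (adjusted p = 0.530 by edgeR) and 0.61 for EA1 siRNA 2, and was not called with the siRNAs merged (adjusted p = 0.152). Of 7 BEACH-domain relatives of LYST, 4 rose. The largest were NBEAL1 (-1.03), NBEA (-0.90) and WDR81 (-0.50), the last not called with EA1 siRNA 2 (adjusted p = 0.0743 by edgeR). Without control replicate 2, 2 SNAREs and 2 of these relatives were called in place of 4 each.

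Of 9 pigment genes tested 8 were higher after knockdown, beside 21.5% of all genes: PMEL had a log2FC of -2.14, TYR of -3.10, DCT of -3.05, TYRP1 of -2.26, OCA2 of -1.10 and ATP7A of -0.77, and MLANA and SLC45A2 went from 0.299 and 0.139 CPM in control, at or near the floor of 3 counts, to 2.04 and 1.70 after EA1 siRNA 1 and 3.19 and 3.39 after EA1 siRNA 2. GPR143 (0.802 CPM in control) was not called (adjusted p = 0.0625 by edgeR), but it was called with the replicate block (adjusted p = 0.00221) and by DESeq2 (adjusted p = 0.0315). It stood at 1.35 and 0.257 CPM in control, 7.25 and 1.65 after EA1 siRNA 1, and 5.87 and 0.842 after EA1 siRNA 2. Control and knockdown libraries thus overlapped. Of 5 lineage regulators, MITF (log2FC -0.78), TFAP2A (-1.10) and TFEB (-1.63) were higher after knockdown, while SOX10 (-0.16) and TFE3 (-0.06) were not called; 21.5% of all genes were higher.

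Over the 6 libraries, the gene whose profile, as log2 CPM centred on the control mean, was nearest to that of MYO5A was RAB38 (Euclidean distance 0.131), followed by GYG2 (0.305) and MBP (0.318), each with a log2FC of -2.30, -2.23 and -2.39. Nearest to BLOC1S1 were NBPF26 (0.146), OAZ2 (0.159) and IPP (0.184). These are distances over all genes with a symbol that were tested and carry no test.

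For some of the genes, other genes overlap and the counting of strand is not stated. RAB38 has an antisense lncRNA over 890 of 1432 exonic bases, which was not analysed here, and BLOC1S1 lies inside a readthrough gene on the same strand that had 2 to 11 counts. BLOC1S1, with 96 to 139 counts, shares 272 exonic bases with ITGA7 on the opposite strand, which had 52 to 484 counts. HPS4 shares 1588 exonic bases with ASPHD2 on the opposite strand, which had 2 to 27 counts, and LYST shares 590 with the pseudogene LDHAP2, which was not analysed here. HPS4 overlaps SRRD (240 to 321 counts) by 55 bases, RAB27A overlaps PIGB (145 to 258 counts) by 154 bases and shares 183 exonic bases with PIGBOS1 on the same strand (26 to 43 counts), and MLPH has an antisense lncRNA over 373 of its exonic bases. The part of these overlaps in the values was not tested.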

How the data were processed

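RNA-seq counts of SU-CCS-1 were analysed, and the mouse, ChIP-seq and HiChIP data were left out. The authors aligned reads to hg38 by BWA-MEM without a splice model, and deposited raw counts per gene from featureCounts 1.6.3 (submitters' processing notes), with annotation and strand setting not given in the sources used here. Groups and replicate numbers came from the labels. From the counts, edgeR 4.0.16 was run with filterByExpr (minimum count 10, minimum total 15), TMM and its quasi-likelihood test over 3 groups, with Benjamini-Hochberg adjustment. SE is the size of the log2FC over the square root of F. CPM are TMM-normalized. Positions and lengths came from GENCODE release 44, promoters from RefSeq. The 10 genes and all lists were chosen with earlier results of these data known. Genes named are the 10, up to 3 per direction of each list with the largest averaged log2FC among those called, all of any list of 3 or fewer, the pigment list, markers, ATF1, EWSR1 and the genes nearest in profile. BLOC1S2, RAB9A, RAB29, SOX10, TFE3, KIF13A and VAMP7 were added after their values were seen. On simulated data the fit made somewhat more false calls than aimed at. Alternatives were RLE size factors, other filters, the replicate block, a merged knockdown group, left-out libraries and DESeq2 1.42.0.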

Additional observations from a re-analysis of the deposited data

Results flagged for a closer look

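The effects of the 2 EA1 siRNAs differed for 6 genes of the lists examined, by edgeR's test of the difference itself at an adjusted p under 0.05. They were 1 of the 10 genes, 4 of the 90 further machinery genes and 1 of the 9 pigment genes tested, beside 2.24% of all genes. RAB32 was higher with EA1 siRNA 2 (log2FC 0.63, EA1 siRNA 2 minus EA1 siRNA 1, adjusted p = 0.0334), as were VAMP7, a SNARE of melanosome cargo delivery (0.76, adjusted p = 0.0310), and ATP7A, the copper transporter that supplies tyrosinase (0.56, adjusted p = 0.0208). AP3M1, a subunit of AP-3 (-0.49, adjusted p = 0.0294), KIF13A, a kinesin that moves melanosomal endosomes (-0.55, adjusted p = 0.0211), and STX3 (-0.51, adjusted p = 0.0450) were lower with EA1 siRNA 2. KIF13A and VAMP7 were named after their values were seen. The cause of these differences was not tested.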

How the results depend on the processing

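The count of the 10 genes called against EA1 siRNA 2 and against the mean of both siRNAs was 8 under every alternative run, and against EA1 siRNA 1 it was 7 to 8, the lower without control replicate 2 or without replicate 1 of EA1 siRNA 1, where RAB32 was lost. Of the values of single genes, 453 kept direction and side of the threshold, 7 lost the call, 4 gained it and 13 changed sign, none of them called. Between the siRNAs the number called was 1, and 0 to 4 with 1 library left out, where RAB32 had an adjusted p of 3.37e-04 to 0.332 over its 12 alternatives and was called in 7. All genes called there ran from 33 to 788 with 1 library left out, around 326. With the replicate block it was 853, and the block changed no call of the 10 genes. Deviations of same-numbered libraries correlated positively between all groups, at 0.13 to 0.199. With only 2 replicate numbers, whether the samples pair by number was not tested, and the reported fit held no replicate block. With 1 library left out, the log2FC of genes that changed sign ran from -0.21 to 0.38 for BLOC1S1 against EA1 siRNA 2 and from -0.20 to 0.094 against the mean of both. Between the siRNAs it ran from -0.12 to 0.27 for MLPH, from -0.013 to 0.60 for RAB27A, from -0.047 to 0.43 for RAB38, from -0.48 to 0.16 for GPNMB, from -0.58 to 0.0093 for BLOC1S1, from -0.024 to 0.14 for DTNBP1 and from -0.077 to 0.14 for LYST. A group left with 1 library was assumed to vary like the others. Of 104 genes tested on the machinery, pigment and lineage lists, 54 were called against the mean of both siRNAs. Of these, 46 were higher after knockdown and 8 higher in control, beside 6344 of all 14571 genes called in either direction. The count on these lists changed with the processing and was lower without control replicate 2. The cause of these changes was not tested. With 2 libraries a group, changes smaller than the printed intervals were not detectable.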
